A study of Mus musculus with 29 samples.

Results

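Microglia are the resident macrophages of the brain. In the healthy cortex they survey the tissue with motile processes, clear debris and synaptic material through lysosomes, and supply the first component of complement. Their survival depends on the receptor Csf1r, and their resting identity on TGF-beta signalling and on transcription factors such as PU.1 (gene Spi1) and Sall1. The messages that microglia were translating were described here for mice that carried a ribosomal tag and no other engineered disease or stress allele. These control TRAP libraries number 5 of the 29 libraries of the series and were taken by their group label. TRAP, which stands for translating ribosome affinity purification, pulls down tagged ribosomes with the polyA RNA bound to them.

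The mice were labelled with the genotype Cx3cr1CreErt2/+;Eef1a1LSL.eGFPL10a/+. By this label a Cre recombinase that needs tamoxifen sat on 1 of the 2 Cx3cr1 alleles. It switched on an eGFP-tagged copy of the ribosomal protein L10a from the Eef1a1 locus. Each mouse received 6 gavages of 100 mg/kg tamoxifen at 4 to 6 weeks of age, at least 48 h apart, and was 6 months old at collection. They carried no 5xFAD transgene and were not labelled as given VEGF or ASV. The tissue was cortex, from 3 males (replicates 1, 2 and 4) and 2 females (replicates 3 and 5). Replicates 1 to 4 were labelled batch 1 and replicate 5 was the only one of batch 2, so batch and animal cannot be told apart for that library. Cx3cr1 is also active in the macrophages of the brain's borders, so the driver does not restrict the tag to parenchymal microglia.

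The libraries held 3.51 M, 10.8 M, 10.9 M, 9.22 M and 5.75 M counts in replicates 1 to 5 over 22327 gene symbols. A gene counted as detected at 1 CPM, the usual scaling of counts to the library total, or more in each of the 5 libraries, which 11681 genes were. Of these, 11027 were protein coding and 277 were long noncoding RNAs, and the median detected gene had 29.6 CPM. At the other end 1957 symbols had no count in any library, and a gene without a count may still have had up to 0.0746 CPM in the pooled 40.2 M counts (3 counts, counting error only). With 1 group there was no contrast and no statistical test, so all values below are descriptions, given as mean ± SD over the 5 libraries where not stated otherwise. CPM ranks the share of reads that a message took. Levels were compared between genes only after division by merged exon length, as TPM, which scales counts per kilobase to the same sum in every library.

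The 2 messages with the most reads were Tmsb4x, for an actin-sequestering thymosin, and Cst3, for the secreted cathepsin inhibitor cystatin C. Further down came the complement genes C1qb and C1qc and the lysosomal protease gene Ctss. Their promoters, 250 bases before to 50 after the start of transcription, are shown because these 5 genes were among the 6 with the most reads; they come from RefSeq for GRCm38.p6 and read 5′ to 3′ on the gene's own strand. Capitals mark GAGGAA or its reverse complement TTCCTC, the core that PU.1 is known to recognise, searched on both strands.
Tmsb4x promoter: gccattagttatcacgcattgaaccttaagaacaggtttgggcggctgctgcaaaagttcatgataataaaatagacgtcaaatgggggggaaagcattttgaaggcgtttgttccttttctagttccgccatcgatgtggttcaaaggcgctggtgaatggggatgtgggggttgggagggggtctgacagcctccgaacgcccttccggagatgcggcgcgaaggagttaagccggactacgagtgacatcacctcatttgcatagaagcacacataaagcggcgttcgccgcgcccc
Cst3 promoter: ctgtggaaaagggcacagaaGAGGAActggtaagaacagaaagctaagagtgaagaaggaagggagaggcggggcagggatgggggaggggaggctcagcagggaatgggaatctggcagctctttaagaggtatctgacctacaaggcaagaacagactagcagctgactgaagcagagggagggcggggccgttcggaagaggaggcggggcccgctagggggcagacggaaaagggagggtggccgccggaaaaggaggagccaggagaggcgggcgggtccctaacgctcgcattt
C1qb promoter: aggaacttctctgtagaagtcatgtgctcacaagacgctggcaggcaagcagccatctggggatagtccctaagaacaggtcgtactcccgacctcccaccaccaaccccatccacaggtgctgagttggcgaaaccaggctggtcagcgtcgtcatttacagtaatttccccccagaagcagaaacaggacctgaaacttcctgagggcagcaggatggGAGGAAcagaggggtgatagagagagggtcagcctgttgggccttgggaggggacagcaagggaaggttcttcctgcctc
C1qc promoter: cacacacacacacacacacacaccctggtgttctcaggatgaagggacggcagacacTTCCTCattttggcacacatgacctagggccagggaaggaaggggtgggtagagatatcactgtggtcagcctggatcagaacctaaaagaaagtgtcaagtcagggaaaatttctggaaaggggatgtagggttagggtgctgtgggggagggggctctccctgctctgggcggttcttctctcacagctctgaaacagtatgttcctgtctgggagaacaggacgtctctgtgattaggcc
Ctss promoter: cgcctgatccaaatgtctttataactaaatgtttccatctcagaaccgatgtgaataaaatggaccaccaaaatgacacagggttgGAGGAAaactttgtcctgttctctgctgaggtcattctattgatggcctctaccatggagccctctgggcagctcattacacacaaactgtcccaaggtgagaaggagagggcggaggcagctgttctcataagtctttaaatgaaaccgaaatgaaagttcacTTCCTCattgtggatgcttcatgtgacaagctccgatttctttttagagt
The Tmsb4x window is chrX:167209169-167209468 on the minus strand and held no match. The Cst3 window is chr2:148875463-148875762 on the minus strand and held 1 match. Both complement windows lie on the minus strand of chromosome 4, C1qb at chr4:136886151-136886450 and C1qc at chr4:136892865-136893164, with 1 match each. The Ctss window, chr3:95526536-95526835 on the plus strand, held 2 matches, 1 in each orientation. Among all 32851 RefSeq windows of this length 28.3% held the motif, among those of detected genes 26.4%, and among those of the 30 genes with the highest mean CPM 39.1% (9 of 23 windows). For the list of microglial identity genes 10 of 18 windows held it (55.6%). A match describes letters in a window, not a bound site.

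Reads were concentrated on few messages. Tmsb4x and Cst3 together took 8.28% ± 1.12 of all counts, the 10 highest genes took 12.6% ± 1.61 and the 100 highest took 26.3% ± 1.93. Between 635 and 803 genes made up 50% of a library. Tmsb4x stood at 45237, 41665, 40504, 42063 and 48742 CPM in replicates 1 to 5, and Cst3 at 34790, 26129, 44664, 39870 and 50388 CPM. The first varied little, while the second was 1.93-fold higher in replicate 5 than in replicate 2. Per length the pair could not be ordered, at 87639 TPM for Tmsb4x and 84677 TPM for Cst3, with Tmsb4x above Cst3 in 2 of 5 libraries. Every other gene was lower, and C1qb, the next by either measure, stood below Cst3 in all 5 libraries (TPM ratio of Cst3 to C1qb 3.45 to 5.69).

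The A, B and C chains of C1q, which assemble into the trigger of the classical complement pathway, were all among the 10 highest genes by CPM. C1qb had 5255, 6508, 9119, 6438 and 8764 CPM, C1qc 4098, 5225, 6060, 4805 and 7164 CPM, and C1qa 2677, 3027, 4336, 3215 and 4830 CPM in replicates 1 to 5. Replicates 3 and 5, the 2 females, had the highest values of all 3 chains, with replicate 1 the lowest. Per length the order was C1qb, then C1qa, then C1qc in each of the 5 libraries, at 18167, 9512 and 7760 TPM. The 3 genes lie side by side on the minus strand of mm10 chromosome 4, between position 136880129 and position 136898803. Receptors that read complement products were far lower in reads, with Itgam and Itgb2, the chains of complement receptor 3, at 336 ± 35.8 and 227 ± 37.3 CPM, C3ar1 at 132 ± 9.57 CPM and C5ar1 at 117 ± 16.0 CPM. The downstream components were near the floor, at 1.18 ± 1.03 CPM for C3 and 4.09 ± 2.25 CPM for C4b.

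**Figure D1:**
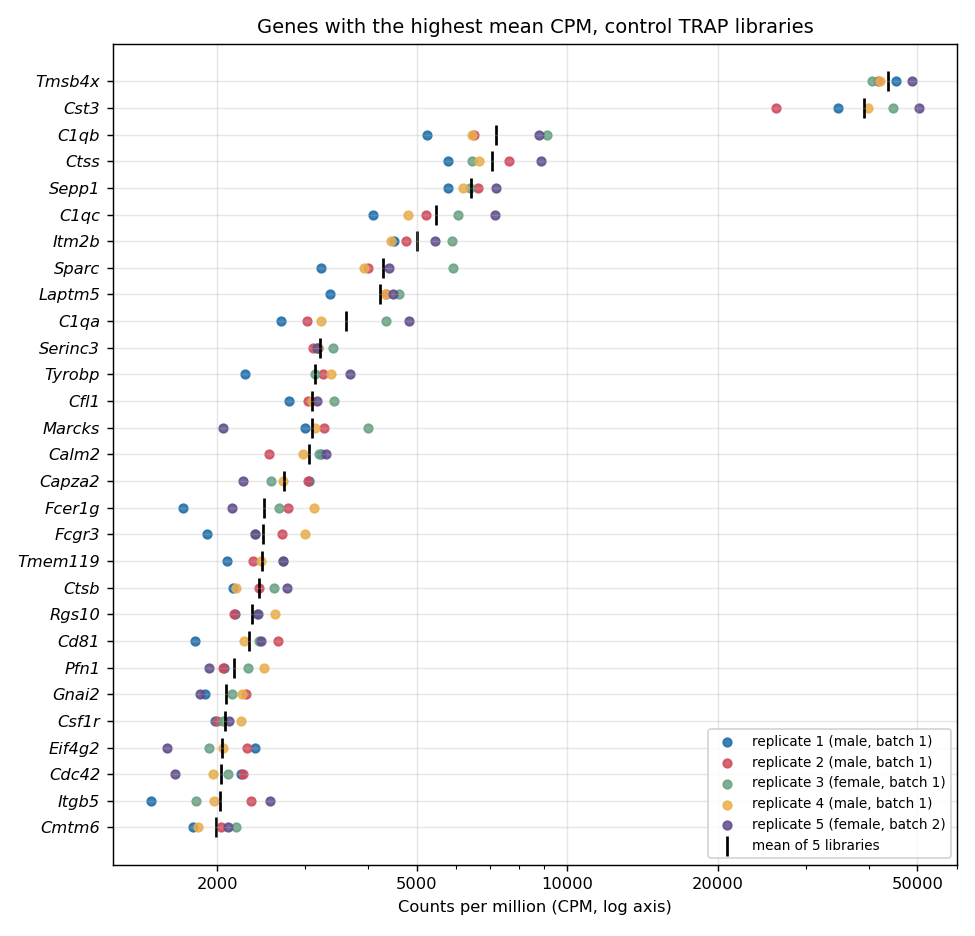
CPM of the genes with the highest mean CPM in each of the 5 libraries (points, coloured by replicate) with the mean (black mark), on a log axis. Tmsb4x and Cst3 stand apart from all other genes, and Csf1r at 2077 CPM is among the tightest of them.

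Other messages of the first rank served secretion, membranes and the cytoskeleton. Sepp1 (now Selenop, the selenium carrier selenoprotein P) had 6436 ± 533 CPM, Itm2b (an integral membrane protein known from familial dementias) 5013 ± 628 CPM, and Sparc (a matrix-binding glycoprotein) 4292 ± 997 CPM. The lysosomal membrane protein gene Laptm5 had 4224 ± 500 CPM and Serinc3, a serine incorporator, 3204 ± 119 CPM. Serinc3 was the steadiest of them, with 3171, 3106, 3411, 3176 and 3157 CPM in replicates 1 to 5. Cfl1, for the actin-severing cofilin, reached 3098 ± 233 CPM although 94.8% of its merged exon length lies inside the span of the neighbouring gene Snx32 in GENCODE, so its reads may be shared between the 2 symbols. As a list the actin cytoskeleton genes took 5.84% ± 0.246 of counts, most of it Tmsb4x, and all 25 were detected. Actb had 1624 ± 311 CPM and Actg1 85.9 ± 13.3 CPM, and per length Actb was 17.2- to 19.6-fold above Actg1 in every library.

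Which genes lead depends on how length enters. Of the 100 highest genes by CPM, 66 were among the 100 highest by TPM and 44 among the 100 highest by the authors' RPKM. For 86.4% of 19612 genes the length behind that RPKM matched the distance between the gene's ends to 0.1%, which counts introns as well. The median span of the 100 highest genes was 16.6 kb by CPM, 10.6 kb by TPM and 3.72 kb by RPKM, against 25.2 kb for all detected genes. Cx3cr1 shows the effect, since its span of 168 kb left it at 3.02 RPKM and RPKM rank 3884, while it was 219th by CPM and 432nd by TPM. Short messages moved the other way, and Tyrobp, for the adaptor DAP12, was 12th by CPM at 3141 ± 525 CPM and 5th by TPM at 12931 TPM. Atox1, a copper chaperone, was 228th by CPM at 490 ± 60.5 CPM and 22nd by TPM. Within CPM the order was stable, as 78 of the 100 highest genes were in the top 100 of all 5 libraries and 9 of the 10 highest were in every top 10.

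Microglial identity genes were described as a list. Its members were chosen with earlier results of these data known, so their levels are no independent check of the microglial label. Of 26 identity genes, P2ry12, P2ry13 and Gpr34 are not analysed here. In GENCODE M21 they lie inside the spans of Med12l and Cask on the opposite strand. The remaining 23 were all detected, all at 100 CPM or more on average, and took 13.6% ± 1.71 of counts with a median of 2077 CPM, against 29.6 CPM for the median detected gene. Tmsb4x and Cst3 alone made up 8.28 of those 13.6 percentage points. Tmem119, a membrane protein used to tell microglia from other macrophages, had 2091, 2353, 2703, 2447 and 2708 CPM in replicates 1 to 5. Csf1r, the receptor for CSF1 and IL-34, had 1981, 2000, 2058, 2234 and 2113 CPM. Both stayed within narrow ranges, with a coefficient of variation (CV, SD over mean) of 0.11 for Tmem119 and 0.05 for Csf1r. Csf1r (mm10 chromosome 18, 61100598 to 61132149) was 26th by CPM and 91st by TPM.

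Further genes of the list followed. Aif1, which encodes the calcium-binding protein IBA1, had 1903 ± 162 CPM, Selplg (the selectin ligand PSGL-1) 1838 ± 316 CPM, Siglech (a sialic acid-binding lectin) 1535 ± 257 CPM, and Olfml3 (a secreted olfactomedin-like protein) 1351 ± 292 CPM. Mertk, the kinase receptor through which phagocytes take up dead cells, was the lowest of the 23 at 203 ± 12.4 CPM. Of the 23 genes, 13 were highest in replicate 5 and 12 lowest in replicate 1. Among all 9011 genes with a mean of 10 CPM or more, 20.2% were highest in replicate 5 and 15.2% lowest in replicate 1.

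Cx3cr1, the fractalkine receptor gene and the site of the CreERT2 insertion, was the exception in 1 animal. It had 702, 15.7, 586, 575 and 642 CPM in replicates 1 to 5. Replicate 2 thus ranked Cx3cr1 7731st of its genes, while its best rank in another library was 133rd. Replicate 2 had the same labelled genotype as the other libraries. Its other identity genes were not depleted in this way, with Tmem119 at 2353 CPM and Csf1r at 2000 CPM, and the cause was not tested. Eef1a1, the locus that carries the tag, had 491 ± 51.0 CPM and Rpl10a, the gene of the tagged protein, 62.2 ± 10.1 CPM. The construct's own sequence is not a separate entry in the counts, so these values do not measure the tag.

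Transcription factors of the microglial lineage were measured at moderate levels, and all 15 with values were detected. Among them Irf5, an interferon regulatory factor, had 631 ± 60.7 CPM (600 TPM) and Spi1 (PU.1) 582 ± 39.95 CPM (595 TPM). Per length Irf5 and Spi1 changed places between libraries, with Irf5 higher in 2 of 5. Sall1, required for the microglial rather than the macrophage fate, had 697, 536, 506, 558 and 376 CPM, Mef2c 549, 560, 425, 629 and 361 CPM, and Maf 462, 434, 564, 498 and 231 CPM in replicates 1 to 5. Each was lowest in replicate 5. So was Runx1, with 43.3 CPM in replicate 5 against 94.0 to 122.8 CPM in the others. The list took 0.368% of counts in replicate 5 and 0.479% to 0.488% in the 4 batch 1 libraries, and 8 of its 14 genes with at least 10 CPM were lowest there, while 29.4% of all such genes were.

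TGF-beta signalling, which holds microglia in the resting state, was represented at every step. Tgfbr1, a receptor subunit, had 922 ± 63.9 CPM and Tgfbr2 274 ± 37.1 CPM, and per length Tgfbr1 was 3.35- to 4.71-fold above Tgfbr2. The ligand Tgfb1 had 151 ± 15.7 CPM and Nrros, which anchors latent TGF-beta on microglia, 100.1 ± 19.3 CPM. Among the signal transducers Smad4 had 109 ± 22.04 CPM and Smad3 87.4 ± 10.4 CPM. The inhibitors Ski and Smad7 had 332 ± 110 CPM and 88.7 ± 21.8 CPM. Of 10 such genes with at least 10 CPM, 7 were lowest in replicate 5, against 29.4% of all genes at that level.

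The Trem2 pathway, by which microglia sense lipids and debris, took 0.683% ± 0.0586 of counts. Trem2 itself had 709, 628, 932, 744 and 1145 CPM in replicates 1 to 5, highest in the 2 females. Its adaptor Tyrobp was far more abundant per length, with Trem2 at 0.0261 to 0.0421 of the Tyrobp TPM. Tyrobp also serves other receptors, as does Fcer1g (2479 ± 555 CPM), the Fc receptor gamma chain. Downstream, the kinase Syk had 137 ± 27.6 CPM, the phospholipase Plcg2 167 ± 36.5 CPM and the inhibitory phosphatase Inpp5d 591 ± 140 CPM. Cd33, an inhibitory sialic acid receptor, had 524 ± 85.8 CPM. Bin1, a membrane-bending protein known as an Alzheimer's disease risk gene, ranked 64th with 1196 ± 152 CPM.

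Sensors of nucleotides and microbes that had values were mostly lower. Of 11 listed purinergic genes 7 had values, and the purinergic receptor genes P2ry12 and P2ry13 are not analysed here. Entpd1 (CD39), the enzyme that breaks down extracellular ATP, had 351 ± 28.2 CPM, P2ry6, a UDP receptor tied to phagocytosis, 218 ± 30.9 CPM, P2rx7 67.5 ± 9.40 CPM and P2rx4 60.1 ± 15.9 CPM. Nt5e, for the CD73 enzyme that makes adenosine, was below 1 CPM on average at 0.672 ± 1.08 CPM. Of the Toll-like receptor genes Tlr7 (a sensor of single-stranded RNA) had 89.1 ± 17.5 CPM, Tlr13 (a sensor of bacterial ribosomal RNA) 84.6 ± 12.1 CPM and Tlr4 (for lipopolysaccharide) 84.4 ± 22.95 CPM. Tlr7 and Tlr13 could not be ordered per length, since Tlr7 was higher in 3 of 5 libraries. Tlr9 had 0.253 ± 0.310 CPM. The co-receptor Cd14 had 197 ± 53.9 CPM and Ly86, the partner of the Toll-like protein RP105, 1776 ± 145 CPM.

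Lysosomal genes formed the third largest of the lists by reads, with 2.90% ± 0.349 of counts, 32 of 33 genes detected and a median of 419 CPM. Ctss, the cathepsin active at neutral pH, had 5771, 7650, 6440, 6674 and 8841 CPM in replicates 1 to 5. Ctsb followed with 2422 ± 261 CPM, Ctsd with 1513 ± 235 CPM, the asparaginyl protease gene Lgmn with 1353 ± 220 CPM and Ctsz with 1206 ± 252 CPM. Per length Ctss stood 6.92- to 8.99-fold above Ctsd and 11.1- to 14.3-fold above Ctsb. Grn, for progranulin, had 843 ± 138 CPM and Cd68 514 ± 67.1 CPM. Psap, the precursor of the saposins, had 930.5, 1040, 438, 656 and 888 CPM, lowest in replicate 3. Replicate 5 was highest for 20 of 32 lysosomal genes with at least 10 CPM and replicate 1 lowest for 22, against 20.2% and 15.2% of all genes at that level.

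Genes that rise around amyloid plaques in disease-associated microglia were split at rest. As a list of 22 they took 0.980% ± 0.202 of counts. Most of that came from messages that resting microglia also carry, Tyrobp, Apoe (1437 ± 581 CPM), Lyz2 (1341 ± 479 CPM), the protease inhibitor Timp2 (1059 ± 225 CPM) and Cd9 (1025 ± 189 CPM). The defining members took fewer reads than these. Cst7, a cystatin, had 49.6 ± 20.9 CPM and Clec7a, a receptor for fungal glucans, 26.9 ± 24.7 CPM. Spp1 (osteopontin) had 9.25 ± 1.58 CPM, Lpl (lipoprotein lipase) 9.22 ± 3.39 CPM and Itgax (CD11c) 2.24 ± 1.58 CPM. Per length Cst7 (138 TPM) and Clec7a (28.5 TPM) lay above the median detected gene (17.9 TPM). Spp1 (15.5 TPM), Lpl (2.44 TPM) and Itgax (1.30 TPM) lay below it. Apoe, the main lipid carrier of the brain, had 1411, 894, 1823, 861 and 2194 CPM in replicates 1 to 5, and Lyz2 had 1238, 903, 1622, 924 and 2020 CPM. Both genes were lowest in replicates 2 and 4 and highest in replicates 3 and 5.

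Antigen presentation genes varied between animals. H2-D1, a classical class I heavy chain, had 419, 1559, 665, 502 and 839 CPM in replicates 1 to 5, and H2-K1 had 149, 516, 292, 195 and 259 CPM. Replicate 2 was far above the rest for both. These genes belong to a family of near-identical copies, so the counting could shift reads between members. Among class II genes Cd74, the invariant chain, had 250, 298, 164, 75.3 and 88.6 CPM, H2-Ab1 62.7, 69.6, 30.4, 17.1 and 20.9 CPM and H2-Aa 56.1, 45.2, 16.2, 3.36 and 14.8 CPM. Replicates 1 and 2 were highest and replicate 4 lowest in all 3. H2-DMa, which helps load peptides and had the most reads of the list, went otherwise, with 185, 381, 228, 243 and 333 CPM and replicate 1 lowest. H2-DMb1, its partner chain, was likewise lowest in replicate 1, at 80.6 CPM, and highest in replicate 5, at 131 CPM. Ciita, the class II master regulator, was close to undetected at 0.0939 ± 0.133 CPM. The class I list took 0.160% ± 0.0646 of counts and the class II list 0.0642% ± 0.0186. Of 11 class I genes 9 had values, and the light chain gene B2m is not analysed here, so the class I share is incomplete.

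Interferon-response genes, like class I, were highest in replicate 2. They took 0.134% of its counts against 0.0828% to 0.105% in the other 4 libraries, and 14 of the 17 genes with at least 10 CPM were highest there, while 20.4% of all such genes were. Ifitm3, an antiviral membrane protein, had 39.6, 82.6, 40.4, 38.3 and 43.1 CPM in replicates 1 to 5, Ifi27l2a 38.4, 99.6, 42.5, 21.8 and 31.8 CPM, and Ifit3 14.5, 35.3, 11.5, 10.5 and 13.7 CPM. Replicate 2 stood above the other 4 libraries in each. Axl (a kinase receptor for dead cells, at 122 CPM against 17.7 to 53.9 CPM), Clec7a (70.2 against 9.98 to 21.2 CPM), Cd52 (588 against 177 to 360 CPM) and the cell-cycle inhibitor gene Cdkn1a (417 against 94.6 to 211 CPM) were also highest in replicate 2. The chemokine list was level, at 0.0637% to 0.0776% of counts. Its main members were Ccl9 at 169 ± 38.4 CPM and Ccl12 at 135 ± 41.2 CPM, and per length Ccl12 stood above Ccl9 in every library. Inflammatory cytokines were low, with Il1b at 4.31 ± 2.55 CPM, Il6 at 9.37 ± 5.19 CPM and Tnf at 1.14 ± 0.840 CPM, and Il18 at 49.6 ± 7.18 CPM was the highest of the 4.

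**Figure D2:**
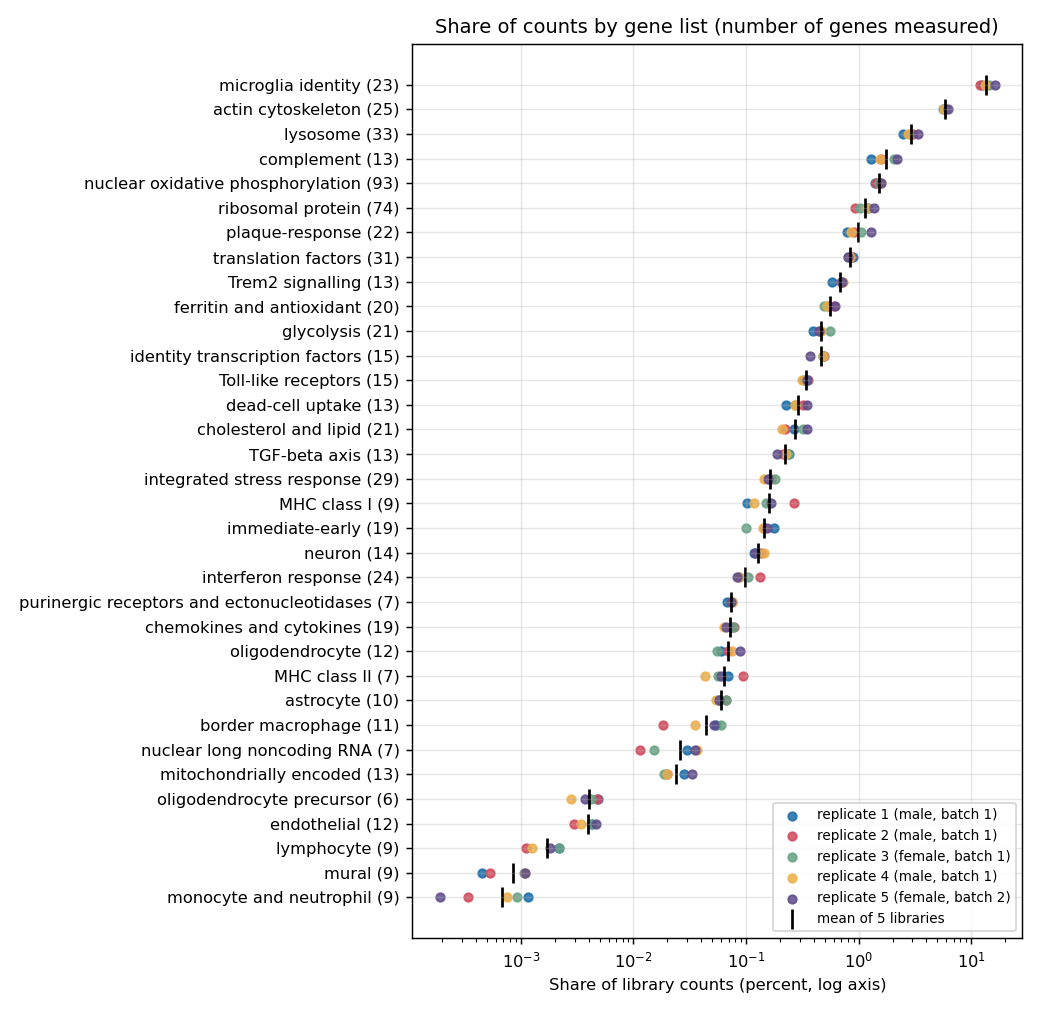
Share of each library's counts taken by each gene list, on a log axis, with the number of genes measured in parentheses, 1 point per library and a black mark at the mean. The identity list lies at 11.8% to 16.1% in every library, while class I and interferon genes are highest and border macrophage genes lowest in replicate 2.

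Immediate-early genes, which cells switch on within minutes of a stimulus, moved by library. Egr1 had 85.4, 103, 21.1, 106 and 119 CPM in replicates 1 to 5, Nr4a1 58.1, 63.7, 15.3, 45.5 and 73.0 CPM, Arc 51.8, 119, 15.6, 61.0 and 115 CPM and Fos 24.5, 13.3, 3.77, 13.8 and 20.2 CPM. Replicate 3 was lowest in all 4, and in 13 of 15 list genes with at least 10 CPM, against 23.2% of all such genes. Btg2, an antiproliferative gene, ranged between 210 CPM in replicate 3 and 584 CPM in replicate 1. Junb (161 ± 11.02 CPM) and Ier5 (192 ± 17.2 CPM) barely varied. Arc and Egr1 are also neuronal activity genes, and their cell of origin was not tested.

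The integrated stress response, which the series was designed to alter, was measured here at its baseline. Its 29 genes took 0.162% ± 0.0136 of counts, with 28 detected and a median of 31.2 CPM, close to the 29.6 CPM of the median detected gene. Atf4, the transcription factor whose translation the response favours, had 163, 147, 147, 158 and 148 CPM in replicates 1 to 5, a CV of 0.05. Eif2s1, which encodes the phosphorylated factor eIF2α, had 120 ± 9.88 CPM. Among the 4 kinases that phosphorylate it, Eif2ak1 (HRI, a sensor of heme) had 106 ± 13.8 CPM, Eif2ak3 (PERK) 24.8 ± 4.26 CPM, Eif2ak4 (GCN2) 19.0 ± 7.73 CPM and Eif2ak2 (PKR) 12.8 ± 4.73 CPM. The phosphatase subunits that reverse the mark, Ppp1r15b and Ppp1r15a, had 81.6 ± 11.1 and 30.7 ± 11.3 CPM. Targets of ATF4 ranged widely, and Slc3a2 and Phgdh averaged over 100 CPM. Lower ones were Ddit3 (CHOP) at 31.2 ± 3.88 CPM, Asns (asparagine synthetase) at 15.6 ± 3.41 CPM, Trib3 at 6.27 ± 4.21 CPM, Atf5 at 2.95 ± 0.814 CPM and Chac1 at 2.88 ± 1.75 CPM. Ddit4, an inhibitor of mTORC1, varied most among those at 10 CPM or more, with 47.0, 62.4, 222, 43.4 and 77.7 CPM and replicate 3 highest.

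Genes of the translation machinery were detected almost throughout. All 31 translation factors were detected and took 0.835% ± 0.0364 of counts, led by Eif4g2, an initiation factor for cap-independent translation, at 2047 ± 314 CPM. Eif5a had 821 ± 59.7 CPM, Eif1 631 ± 49.9 CPM and Eef2 435 ± 54.2 CPM. Ribosomal protein genes took 1.15% ± 0.171 with 73 of 74 detected, led by Rpl4 at 687 ± 57.5 CPM and Rps3 at 575 ± 50.01 CPM. Replicate 5 was highest for 46 of the 72 with at least 10 CPM and replicate 2 lowest for 55, against 20.2% and 17.8% of all genes at that level. Ribosomal protein genes, like Gapdh, have many processed pseudogenes of near-identical sequence, so their levels are uncertain. Gapdh had 26.8 ± 5.60 CPM, while other genes of glycolysis such as Ldhb (1099 ± 166 CPM), Aldoa (679 ± 115 CPM) and Pkm (533 ± 84.6 CPM) were high. Per length Ldhb stood 6.70- to 9.44-fold above Ldha. The treatment of reads with several matches is not given in the sources used here. Its part in this ratio, and in those of Actb to Actg1 and Fth1 to Ftl1, was not tested.

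Energy and redox genes were mostly detected when encoded in the nucleus. Nuclear genes of oxidative phosphorylation took 1.504% ± 0.0840, with 84 of 93 detected and Atp5b, the catalytic beta subunit of ATP synthase, at 793 ± 110 CPM. The genes encoded in the mitochondria took only 0.0240% ± 0.00626. They were uneven, as 7 of 13 were detected, 3 had no count (mt-Nd3, mt-Atp8 and mt-Nd4l) and the rest averaged under 1 CPM. The 7 detected genes averaged 15.5 CPM (mt-Nd6) to 50.2 CPM (mt-Nd5). The lysate was cleared of mitochondria before the pulldown, per the labels' protocols, and the part of this step in these levels was not tested. Nor was the part of the treatment of reads with several matches, which is not given, so the genes at or near 0 may not have been absent. Fth1, the ferritin heavy chain, had 1340, 1934, 1092, 1497 and 1933 CPM in replicates 1 to 5 and stood above the light chain Ftl1 per length in every library (2.11- to 2.94-fold). Gpx1, a peroxide-removing selenoenzyme, had 1196 ± 163 CPM and Slc40a1, the iron exporter ferroportin, 159 ± 26.4 CPM. Among lipid genes after Apoe, Lpcat2 had 621 ± 56.6 CPM, Scd2 120 ± 13.4 CPM and Abca1, the cholesterol exporter, 68.4 ± 11.6 CPM.

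Markers of other brain cells were present at lower shares than the identity list. The 14 neuron genes took 0.129% ± 0.0111 of counts, the 10 astrocyte genes 0.0603% ± 0.00590 and the 12 oligodendrocyte genes 0.0696% ± 0.0131. All 14 neuron genes were detected, and their median of 46.7 CPM lay above the 29.6 CPM of the median detected gene. The astrocyte and oligodendrocyte medians, 16.0 and 13.3 CPM, lay below it. Snap25, a synaptic vesicle fusion protein, was the highest neuron marker at 573, 715, 681, 763 and 561 CPM in replicates 1 to 5, the 144th highest gene of all. The next neuron marker, Slc17a7, had 143 ± 30.3 CPM, and Syt1 had 92.9 ± 17.5 CPM. Slc1a3, an astrocytic glutamate transporter that microglia can also express, had 391 ± 74.6 CPM, while the astrocyte markers Slc1a2, Gja1 and Aqp4 had 52.1 ± 12.96, 20.8 ± 4.85 and 8.25 ± 4.99 CPM. The myelin gene Mbp ranged between 142 CPM in replicate 3 and 323 CPM in replicate 5. Endothelial and mural lists were near the floor at 0.00391% and 0.000844% of counts, with Cldn5 at 0.343 ± 0.377 CPM and Des at 0.

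Blood cell markers were nearly absent. The monocyte and neutrophil list took 0.000676% ± 0.000405 of counts, with Retnlg, Mpo and Chil3 at 0 and Ccr2, the monocyte chemokine receptor, at 9.40, 1.01, 7.36, 4.77 and 0.348 CPM. Of the lymphocyte genes Cd3e, Ncr1 and Nkg7 were at 0, and Cd79b, at 16.8 ± 4.87 CPM, was the single one detected. Cd79b encodes a chain of the B cell receptor, and its partner chain Cd79a had 0.0348 CPM.

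Border macrophage genes were present in all libraries but 1 stood low. They took 0.0537%, 0.0182%, 0.0595%, 0.0354% and 0.0523% of counts in replicates 1 to 5. Pf4, a platelet-factor chemokine also made by macrophages, had 89.1, 14.02, 86.6, 64.2 and 95.2 CPM, Cbr2 88.6, 15.2, 64.2, 40.01 and 73.7 CPM, Mrc1, the mannose receptor CD206, 48.4, 14.9, 70.4, 33.2 and 33.4 CPM, and Lyve1, the hyaluronan receptor, 27.6, 3.78, 45.1, 16.8 and 25.4 CPM. Replicate 2 was lowest in each, and in all 9 list genes with at least 10 CPM, against 17.8% of all such genes. In bulk RNA fewer tagged cells of this type and less of their RNA per cell cannot be told apart. It is the library in which Cx3cr1 was nearly absent and class I genes were highest, and whether these go together was not tested.

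**Figure D3:**
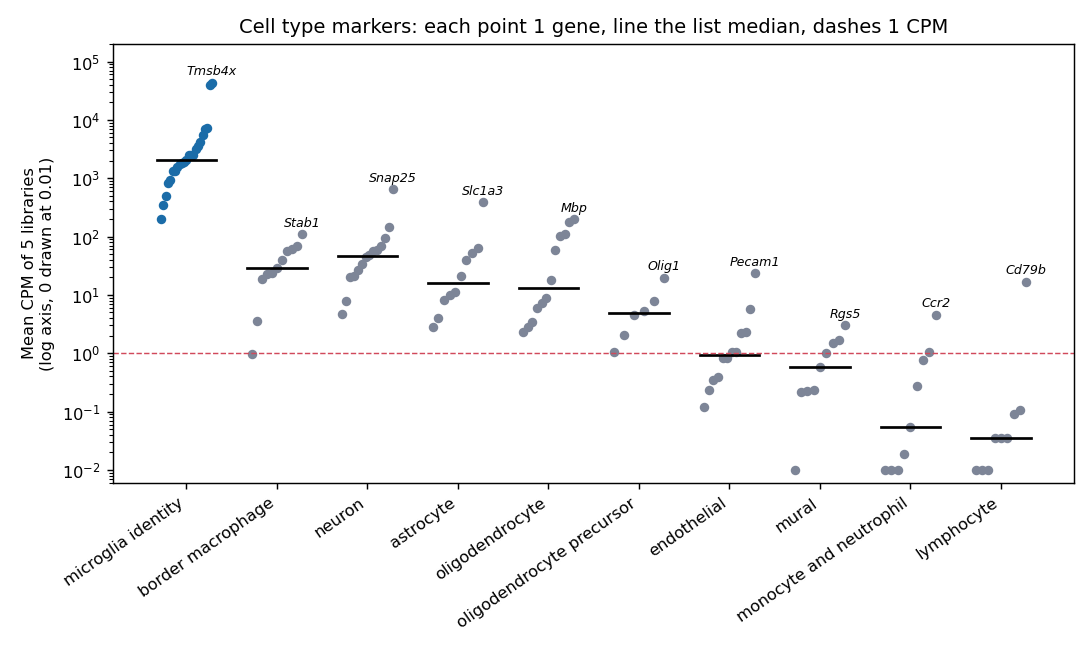
Mean CPM of each cell type marker (1 point per gene, genes at 0 drawn at 0.01) by list on a log axis, with the list median as a line and 1 CPM dashed. Identity genes lie between 203 and 43642 CPM, border macrophage and neural markers mostly between 1 and 200 CPM, and vascular and blood markers mostly under 3 CPM, with Snap25 and Slc1a3 the highest outside the identity list.

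Nuclear long noncoding RNAs were described as well. The pulldown started from a post-mitochondrial supernatant and the samples hold no input library. The share of these RNAs therefore does not measure how much RNA free of ribosomes was carried over. The 7 genes took 0.0257% ± 0.0117 of counts. Malat1, normally among the most abundant nuclear transcripts, had 205, 62.9, 50.9, 197 and 167 CPM in replicates 1 to 5, low in replicates 2 and 3. Neat1 had 5.62 ± 3.27 CPM. Meg3, a neuronal RNA, had 24.8, 13.3, 34.0, 58.3 and 62.2 CPM. Its order across libraries differed from that of Malat1, with replicate 1 high for Malat1 and not for Meg3.

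The libraries were alike as a whole. Across detected genes the Spearman correlation of log2 CPM between 2 libraries was 0.950 to 0.964 over the 10 pairs, with a median of 0.958 (genes share the libraries and are not replicates). Replicate 5 had the lowest mean correlation with the others, 0.953, and replicate 4 the highest, 0.962. At a mean of 10 CPM or more, 9011 genes had a median CV of 0.188, against 0.0584 that Poisson counting alone would give. The median was smaller at higher levels, at 0.232 for genes of 10 to 50 CPM, 0.162 for 50 to 100 CPM, 0.136 for 100 to 500 CPM and 0.124 above 1000 CPM. Of the 9011 genes 13.8% had a CV under 0.1 and 3.60% a CV over 0.5, and the highest library exceeded the lowest more than 2-fold for 23.9%.

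**Figure D4:**
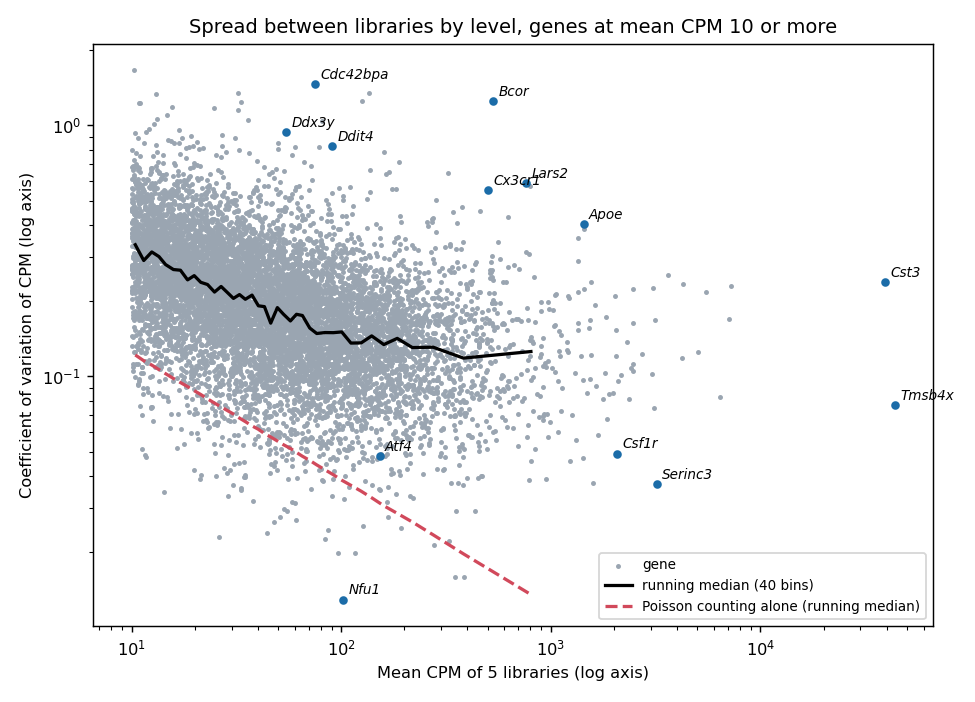
Coefficient of variation of CPM over the 5 libraries against mean CPM for the 9011 genes at 10 CPM or more, both axes log. The black line is the running median and the dashed red line the spread from Poisson counting alone; Csf1r, Serinc3 and Atf4 lie below the median, and Bcor, Cdc42bpa and Cx3cr1 far above it.

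The 10 steadiest messages at 50 CPM or more had CVs of 0.013 to 0.025. Nfu1, an iron-sulfur cluster scaffold, had 100.0, 102, 103, 102 and 103 CPM in replicates 1 to 5 and the smallest CV of 4135 genes, 0.013. Cnot8, a deadenylase, had 390, 381, 378, 385 and 393 CPM. Tnfaip8l2, which dampens immune signalling, had 348 ± 5.55 CPM, and Atp5g3, a subunit of the ATP synthase ring, 276 ± 5.85 CPM. The other 6 of the 10 steadiest were Pqbp1, Crls1, Ppp4c, Gripap1, Txndc9 and Dram2. For 9 of the 10 the CV was below what Poisson counting alone gives on average, so it does not rank them among themselves.

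The most variable messages were mostly set by 1 library. Bcor, a transcriptional corepressor on the X chromosome, had 266, 290, 111, 282 and 1706 CPM in replicates 1 to 5. Gm26561, a long noncoding RNA with 89.4% of its exon length inside the span of Smchd1, had 41.3, 58.2, 59.6, 57.9 and 460 CPM. Nup98, a nuclear pore gene, had 75.8, 68.5, 26.9, 53.2 and 405 CPM, and Lars2, the mitochondrial leucyl-tRNA synthetase, 418, 524, 656, 668 and 1543 CPM. All 4 were high in replicate 5 alone, as were Ylpm1 (232 against 29.9 to 51.3 CPM), Gphn (366 against 102 to 140 CPM) and Il31ra (296 against 74.1 to 116 CPM). Khdrbs3, an RNA-binding splicing regulator, was low there at 69.9 CPM against 216 to 608 CPM.

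Other libraries had their own genes. Cdc42bpa, a kinase that acts on the cytoskeleton, had 270, 24.2, 32.6, 34.9 and 13.6 CPM and was the most variable gene of all 4135 at a CV of 1.46. Mn1 (136 against 24.3 to 46.0 CPM), the sialic acid lyase gene Npl (346 against 99.4 to 164 CPM) and mt-Nd5 (118 against 17.0 to 53.9 CPM) were likewise highest in replicate 1. Counted over the 4135 genes at 50 CPM or more, replicate 5 was more than 2-fold above all other libraries for 13 genes and below all for 12, replicate 3 above for 2 and below for 22, replicate 1 above for 5 and below for 2, replicate 2 above for 1 and below for 7, and replicate 4 above for 0 and below for 1. Replicate 4 was thus the most typical library by this count and by its correlations.

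**Figure D5:**
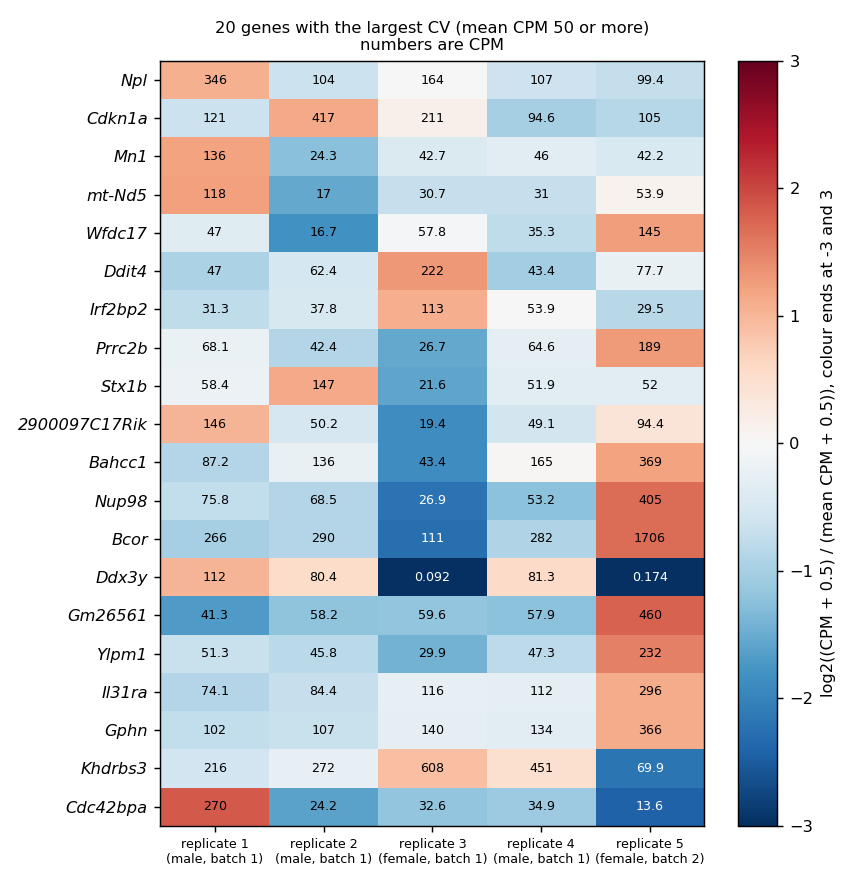
The 20 genes with the largest coefficient of variation among those at a mean of 50 CPM or more (rows) in each library (columns); colour is log2 of CPM over the gene's mean with 0.5 added to both, and numbers are CPM. Most rows have 1 library apart, replicate 5 for Bcor, Nup98 and Gm26561 and replicate 1 for Cdc42bpa, and Ddx3y follows the labelled sex.

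Y-linked genes matched the labelled sexes in all 5 libraries. Ddx3y, an RNA helicase gene, had 112, 80.4 and 81.3 CPM in the males, replicates 1, 2 and 4, against 0.0920 and 0.174 CPM in the females, replicates 3 and 5. Eif2s3y had 51.3, 50.8 and 51.5 CPM in the males, against 0 and 1.56 CPM in the females. Genes highest in both females, such as Trem2, Apoe and the C1q chains, rest on 2 animals, 1 of them the only batch 2 library, so sex, batch and animal cannot be told apart here.

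Detection was also compared by how a symbol sits among its neighbours. Among protein-coding genes with no exon inside another gene's span, 63.7% of 12812 were detected, with a median of 10.97 CPM. Where up to 50% of the merged exon length lay inside other spans, 77.2% of 3003 were detected, with a median of 19.6 CPM, and between 50% and 90%, 58.6% of 452, with a median of 4.43 CPM. Where over 90% of the length lay inside other spans, 18.4% of 147 were detected, with a median of 0.349 CPM. The counting rule for overlapping features is not given in the sources used here, and its part in these levels was not tested.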

How the data were processed

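From the cortex of each of 5 control TRAP mice, tagged ribosomes were pulled down with GFP antibodies out of a post-mitochondrial supernatant, and their polyA RNA was sequenced after SMART-Seq mRNA LP library preparation, per the labels' protocols. The deposited count table holds whole-number read counts per gene symbol. The authors' second table holds RPKM, counts scaled to the library total and to a length per gene. Per the submitters' processing notes, the tools were featureCounts 2.0.3, HISAT2 2.2.1 and Trim Galore, and the build was mm10. The annotation, the strandedness and the treatment of reads with several matches are not given in the sources used here. The 24 columns of other groups were not used. Reads carried no molecular identifiers, so floors cover counting error only.

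CPM was counts over the library total of 3.51 to 10.9 M. TPM was computed from counts and merged exon length in GENCODE M21, where 21856 of 22327 symbols matched, 417 of them through a RefSeq synonym. Overlap was the share of exon length inside other genes' spans. Mean, SD, CV and ranks were computed in Python 3.11.15 with pandas 2.3.3, and scaling alternatives with edgeR 4.0.16 and DESeq2 1.42.0 in R 4.3.3. The procedure for the spread was tested on simulated data.

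Named genes were the 30 highest by CPM and by TPM, the 20 largest and 10 smallest CV at 50 CPM or more, all identity, transcription factor, sex-linked and engineered genes, and up to 8 per other list plus members with no count. The members and lists were chosen with earlier results of these data known. Named after their values were seen were Actg1, Arc, Asns, Atf5, Bin1, C3, C4b, Cd68, Chac1, Cldn5, Clec7a, Cst7, Ddit3, Eif2ak2, Eif2ak3, Eif2ak4, Fos, Gapdh, Grn, Ifit3, Il1b, Il6, Itgax, Lars2, Lpl, Nr4a1, Ppp1r15a, Psap, Spp1, Syk, Tlr9, Tnf and Trib3. The levels of some genes are not reported here. The libraries are labelled as separate samples, and their spread covers animals and sequencing together. Alternatives were other scalings, thresholds, lengths and leaving out each library.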

Additional observations from a re-analysis of the deposited data

Results flagged for a closer look

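Of 193 genes with printed levels, 24 had 1 library whose gap to the nearest other library was larger than Dixon's critical share of the range for 5 samples (0.71). Chance sets apart about 1 in 20 groups, and over the 9011 genes with a mean of 10 CPM or more 5.85% were set apart, 183 of them through replicate 5, 133 through replicate 1, 100 through replicate 2, 56 through replicate 3 and 55 through replicate 4. The printed genes include those named for their large or small spread, so their count is not a sample of all genes.

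Replicate 5, the only batch 2 library, was high for Bcor at 1706 CPM, Lars2 at 1543 CPM, Gm26561 at 460 CPM, Nup98 at 405 CPM, Gphn at 366 CPM, Il31ra at 296 CPM, Ylpm1 at 232 CPM and Cd79a at 0.174 CPM, which is 1 read. It was low for Syk at 89.0 CPM. Replicate 2 was low for Cx3cr1 at 15.7 CPM and high for Ifi27l2a at 99.6 CPM, Ifitm3 at 82.6 CPM, Clec7a at 70.2 CPM, Ddit3 at 37.9 CPM, Ifit3 at 35.3 CPM and Il6 at 18.4 CPM. Replicate 1, the shallowest library, was high for Npl at 346 CPM, Cdc42bpa at 270 CPM, Mn1 at 136 CPM and Nt5e at 2.56 CPM, and low for Laptm5 at 3354 CPM. Replicate 3 was high for Serinc3 at 3411 CPM, Ddit4 at 222 CPM and Crls1 at 100.1 CPM. Serinc3 and Crls1 are flagged although they varied little in all 5 libraries, since the criterion looks at the gap relative to the range.

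Among the 36 lists, 3 shares were set apart by 1 library. The identity transcription factors took 0.368% of counts in replicate 5, the Trem2 signalling genes 0.580% in replicate 1, and the purinergic receptors and ectonucleotidases 0.0678% in replicate 1, each the lowest of its 5 values. What sets these libraries apart was not tested.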

How the results depend on the processing

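No paired analysis was possible because no result here comes from a test or from a second group. List shares did not move by 1 SD under any of 251 alternatives. These were TMM scaling with factors of 0.956 to 1.05, totals without mitochondrially encoded genes, and each library left out. With a library left out such a move was not possible. Dropping a single library shifts a mean by less than 1 SD of all libraries, whatever the values. The absence of moves there therefore says nothing on batch, sex or animal. Of the 100 highest genes by CPM, 66 remained by TPM and 44 by span-based RPKM, against 100 by TMM-scaled or DESeq2-scaled CPM and 98 to 99 without any 1 replicate. A single count in any library gave 20370 genes, against 11681 detected. With genes at a single count or more included, the median CV was 0.406 against 0.188, and 9033 genes had a CV over 0.5 against 324. That number was 48 at 50 CPM or more and 63 by edgeR's biological coefficient of variation. The latter is an unlike measure, since it leaves out counting noise and draws each gene's value towards those of other genes. The median correlation was 0.941 over genes at 10 CPM or more, against 0.958. Of 1351 alternatives of the printed gene levels 70 were counted as moved, 10 by TMM, 10 by DESeq2 size factors and 50 by leaving out a replicate. The 50 cannot rest on the SD over 5 libraries printed with the levels, so this count and that for the list shares are not comparable.

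Mean levels moved over 1.5 times without replicate 5 for Bcor (237 CPM, against 531), Gm26561 (54.2 against 135), Nup98 (56.1 against 126) and Ylpm1 (43.6 against 81.2), without replicate 1 for Cdc42bpa (26.3 against 75.1), Mn1 (38.8 against 58.3) and mt-Nd5 (33.1 against 50.2), without replicate 2 for Axl (31.97 against 49.96) and Clec7a (16.1 against 26.9), and without replicate 3 for Ddit4 (57.6 against 90.5). Leaving out each library is the extent of the check on batch and sex, since batch 2 has 1 library. For the list shares it could not have shown a move of 1 SD. Replicate 1, at 3.51 M counts, sets the weakest limit, since a gene without a count there may still have had up to 0.854 CPM (3 counts).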
